A study of Mus musculus with 17 samples.

Results

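The genes described here are 46 genes of the cell cycle and of DNA replication, taken as a named list by their known roles. The list was chosen with earlier results of these data known. All 46 had a probe set on the array, out of 17097 genes measured. The list holds 3 D cyclins and their 2 kinases, 4 genes of entry into S phase, 4 inhibitors of cyclin-dependent kinases (CDKs), 8 genes of origin licensing and the replicative helicase, 4 genes of the replication fork and nucleotide supply, 4 genes of the passage from G2 into mitosis, 7 mitotic kinase and checkpoint genes, 8 kinetochore and spindle genes, and the proliferation markers Mki67 and Top2a.

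RNA of sorted mouse cells was hybridised to 17 Affymetrix arrays in 6 groups, all from mice of 6 to 10 weeks. The spleens of wild-type mice yielded 3 macrophage pools (CD11c-, CD11b+, M-CSF receptor+) and 3 granulocyte pools (CD11c-, CD11b+, Ly6C+, M-CSF receptor-). Bone marrow gave myelo-dendritic progenitors (MDPs), a population sorted as lineage-, Sca1-, CD127-, CD117+ and M-CSF receptor+. MDPs came as 3 wild-type pools, 3 pools titled IRF8 knockout with the genotype IRF8-deficient, 3 VENUS-positive pools and 2 VENUS-negative pools. Both VENUS groups also carry the genotype IRF8-deficient, and the labels do not say whether this refers to the reporter allele. A pool held cells of 5 mice in the spleen, wild-type and knockout-labelled groups, and no number is stated for the VENUS pools. Values are log2 expression levels after robust multi-array averaging (RMA). A level is one probe set's brightness, so levels are compared between samples and not between genes.

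The cell cycle is driven by CDKs, which are active only when bound to a cyclin. D cyclins with Cdk4 or Cdk6, then E cyclins with Cdk2, phosphorylate the retinoblastoma protein and release E2F factors, which switch on the genes of DNA replication. Cdc6 and Cdt1 load the Mcm helicase on replication origins, and cyclins A and B with Cdk1 later drive mitosis, in which the Aurora and Polo kinases and kinesin motors build the spindle. CDK inhibitors such as p27, the product of Cdkn1b, hold cells out of the cycle. Myeloid progenitors of the bone marrow divide, while neutrophils divide at the promyelocyte and myelocyte stages and then leave the cycle as they mature.

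The pools of a group correlated at 0.959 to 0.992 over all genes, and array medians lay between 4.33 and 4.48. Irf8 itself, the gene named in the knockout label, had levels of 10.32, 10.42 and 10.18 in the knockout-labelled pools and 10.27, 10.56 and 10.19 in the wild-type MDP pools. These probe sets therefore did not check the label, and no source used here says whether they lie outside the disrupted part. Some pools stood apart in marker genes. Wild-type MDP pool 3 had a mean level of 8.34 over 10 of 12 mature neutrophil markers, against 4.84 and 4.59 in pools 1 and 2. The same pool had 8.14 over 11 of 12 erythroid and megakaryocyte markers, against 5.58 and 6.30, and 7.05 over 5 of 6 mast cell and basophil markers, against 4.17 and 4.19. In the VENUS-negative pools Csf1r, which encodes the M-CSF receptor of the sort, stood at 5.09 and 4.83, against 8.05, 7.63 and 7.99 in the VENUS-positive pools. Their erythroid and megakaryocyte markers averaged 9.75 and 8.91, against 5.42 to 5.91 in the VENUS-positive pools. The spleen granulocytes carried 6 NK-cell markers at 6.76, 6.83 and 7.49, against 4.59 to 4.88 in macrophages. No marker list reached 0, which does not occur on this scale: the lower quartile of all values was 3.25.

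Most of the 46 genes were higher in all MDPs than in the spleen macrophages, and fewer were so against the granulocytes. In 38 genes (82.6%, against 12.1% of all genes) every one of the 11 MDP arrays lay above every macrophage array. In 20 genes (43.5%, against 17.1% of all genes) every MDP array lay above every granulocyte array. The mean level of the 46 genes was 5.95, 5.47 and 6.06 in the macrophage pools, and 8.27, 8.20 and 8.49 in the wild-type MDP pools. It was 7.48, 5.83 and 6.52 in the granulocyte pools, which were spread far wider than either of the others. Among the other MDPs it was 8.11, 8.11 and 8.15 in the knockout-labelled pools, 8.25, 8.35 and 8.54 in the VENUS-positive pools, and 8.18 and 7.72 in the VENUS-negative pools. In bulk RNA, fewer cycling cells and less of these transcripts per cell cannot be told apart.

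**Figure D1:**
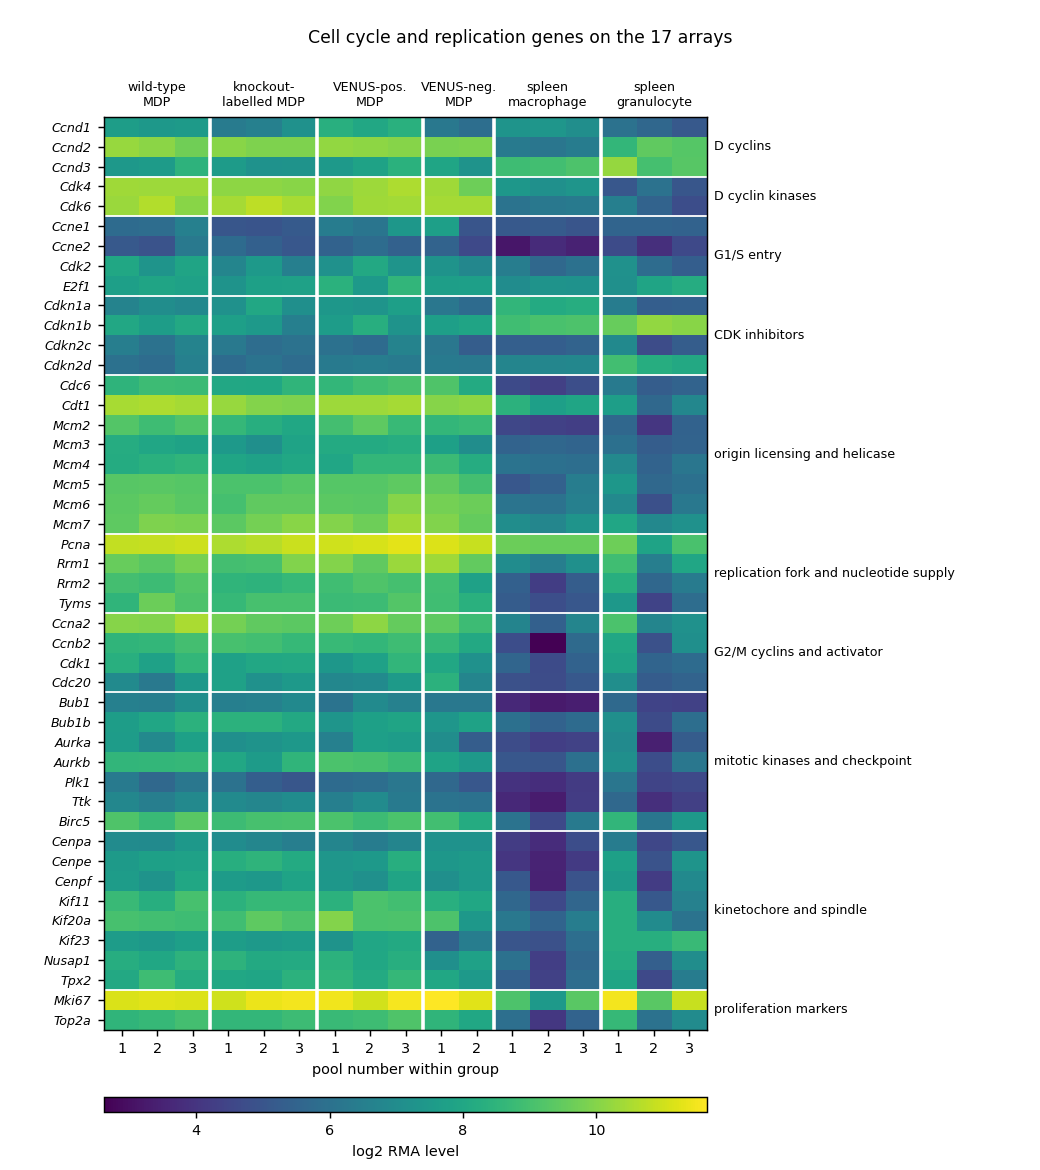
Log2 level of each of the 46 genes (rows, grouped by role) in each of the 17 pools (columns, grouped by sorted population), with the colour scale under the map. The MDP columns are bright through the replication and mitosis rows, the 3 macrophage columns are dark there, and granulocyte pool 1 is brighter than pools 2 and 3, with a mean over the 46 genes of 7.48 against 5.83 and 6.52.

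Spleen macrophages expressed nearly the whole replication and mitosis programme at lower levels than wild-type MDPs. Of the 46 genes, 38 were lower, 4 were higher and 4 did not pass the test (limma, Benjamini-Hochberg over all genes, adjusted p under 0.05), a share of 91.3% called. Over all genes 23.6% were called, 12.2% lower and 11.4% higher. The median difference of the 46 genes was -2.88 on the log2 scale, against 0.00 over all genes. All 8 licensing and helicase genes, all 4 fork and nucleotide genes, all 4 genes of G2 and mitotic entry, all 7 mitotic kinase and checkpoint genes, all 8 kinetochore and spindle genes and both proliferation markers were lower. With each of the 6 pools left out in turn, 39 to 42 genes were called.

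Among the replication genes the largest fall was that of Mcm2, a subunit of the Mcm helicase that unwinds DNA at the fork. Mcm2 stood at 4.56, 4.38 and 4.29 in the macrophage pools and at 9.23, 8.87 and 9.16 in the wild-type MDP pools. The groups lay far apart, and the fold was 25.6 (log2 difference -4.68, SE 0.33, adjusted p = 1.51e-07, limma). Cdc6, which loads the helicase on origins, followed with levels of 4.65, 4.35 and 4.78 against 8.50, 8.81 and 8.79, a 17.2-fold difference (adjusted p = 1.51e-07, limma). Every macrophage pool again lay below every MDP pool. The other licensing genes, Cdt1 and Mcm3 to Mcm7, were 5.27-fold (Mcm4) to 12.6-fold (Mcm5) lower. A second Mcm5 probe set, with a mean level of 4.22, differed by -0.94 on the log2 scale. Tyms, the thymidylate synthase that supplies dTMP, stood at 5.25, 4.80 and 5.07 against 8.52, 9.63 and 9.13. The difference in Tyms was 16.6-fold (SE 0.52 on the log2 scale, adjusted p = 3.95e-05, limma), and -1.52 on the log2 scale when its probe sets were averaged. The 4 other Tyms probe sets, with mean levels of 3.62 to 5.11, differed by -0.27 to -1.39. Rrm2, the small subunit of ribonucleotide reductase, was 16.4-fold lower, and its large subunit Rrm1 6.41-fold lower. Pcna, the sliding clamp of the DNA polymerases, had the smallest fall of the 4 fork genes, 2.47-fold (SE 0.31, adjusted p = 0.00563, limma).

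The mitotic genes fell by similar amounts. Ccnb2, the cyclin B2 partner of Cdk1, was at 4.77, 2.62 and 5.74 in macrophages and at 8.52, 8.61 and 8.95 in wild-type MDPs (log2 difference -4.32, SE 0.72, adjusted p = 0.000374, limma). Macrophage pool 2 was below the lower quartile of all values there, so its level is near the floor of the array. Birc5, the survivin subunit of the chromosomal passenger complex, had levels of 6.06, 4.61 and 6.35 against 9.16, 8.73 and 9.35, a 10.6-fold difference (SE 0.50, adjusted p = 0.000133, limma). Its groups did not overlap, and macrophage pool 2 was once more the lowest. Cenpe, the kinesin that carries chromosomes at the kinetochore, stood at 4.06, 3.51 and 4.14 against 7.55, 7.75 and 7.81 (log2 difference -3.80, SE 0.51, adjusted p = 5.75e-05, limma). The marker Mki67, which encodes the Ki-67 antigen of dividing cells, was at 9.15, 7.48 and 9.33 against 11.16, 11.25 and 11.19, 5.85-fold lower (SE 0.49, adjusted p = 0.00117, limma). Top2a, the topoisomerase that untangles chromosomes, was at 5.91, 4.08 and 5.50 against 8.52, 8.67 and 8.95, 11.7-fold lower (SE 0.53, adjusted p = 0.000154, limma). Its log2 difference of -3.55 ranged from -3.93 to -1.68 over the alternatives. Other Top2a probe sets, with mean levels of 6.07 and 2.62, differed by -1.65 and 0.15. For both markers all 3 macrophage pools lay below all MDP pools of that comparison. In macrophages 7 of the 46 genes had a group mean under the median of all values, 4.38, so their fall can be understated.

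The start regions of the genes that fell together were looked at for short words that cell cycle factors are known to bind. RefSeq promoters of the assembly GRCm38.p6, from 250 bases before to 50 bases after the start, were matched for 38 of the 46 genes (42 promoters). Ccnd1, Ccnd2, Ccne2, Mcm4, Ccna2, Aurkb, Kif20a and Tpx2 were not matched. Searched on both strands were TTTGAA, the core of the cell cycle homology region bound by the DREAM complex, CCAAT, bound by NF-Y, and sites of the E2F factors. The E2F sites were the word TTCCCGC with its variant TTCGCGC, and also the word TTGCCGC with its variant TTGGCGC. The word TTTGAA was in 13 of the 17 promoters of the mitosis genes and proliferation markers (76.5%), in 1 of 12 promoters of the licensing and fork genes (8.33%) and in 17.9% of all 32851 promoters. The E2F words were in 9 of those 12 replication promoters (75%), in 2 of the 17 mitosis promoters (11.8%) and in 9.57% of all promoters. CCAAT was in 15 of 17 (88.2%) and 9 of 12 (75%), against 37.4% of all. Among the 17065 promoters of genes tested on the array, TTTGAA was in 13.4%, E2F words in 13.6% and CCAAT in 37.6%. The 13 remaining promoters of the 46 genes held TTTGAA in 0, E2F words in 2 (15.4%) and CCAAT in 5 (38.5%). Among 101 matches, 2 pairs of different words overlapped. A match describes letters, not binding. Shown are the 130 bases before the start for 3 genes of mitosis, 2 of replication and, for contrast, Cdkn1b, which moved the other way; capitals mark the words searched. Top2a lies at chr11:99024190-99024319 (minus strand), Cdk1 at chr10:69352913-69353042 (minus), Kif11 at chr19:37376252-37376381 (plus), Mcm6 at chr1:128359706-128359835 (minus), Rrm1 at chr7:102441565-102441694 (plus) and Cdkn1b at chr6:134920271-134920400 (plus).
Top2a: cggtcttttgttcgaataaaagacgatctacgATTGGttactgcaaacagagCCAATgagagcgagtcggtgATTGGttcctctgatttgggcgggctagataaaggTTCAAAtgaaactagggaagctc
Cdk1: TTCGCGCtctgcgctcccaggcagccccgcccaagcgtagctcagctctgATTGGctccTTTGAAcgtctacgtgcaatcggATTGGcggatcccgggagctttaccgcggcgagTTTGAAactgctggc
Kif11: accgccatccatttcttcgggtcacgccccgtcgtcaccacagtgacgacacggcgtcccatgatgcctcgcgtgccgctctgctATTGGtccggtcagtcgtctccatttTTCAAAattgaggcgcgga
Mcm6: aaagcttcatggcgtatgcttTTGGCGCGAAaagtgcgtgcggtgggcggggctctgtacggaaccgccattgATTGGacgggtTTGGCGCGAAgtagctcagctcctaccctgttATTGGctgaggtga
Rrm1: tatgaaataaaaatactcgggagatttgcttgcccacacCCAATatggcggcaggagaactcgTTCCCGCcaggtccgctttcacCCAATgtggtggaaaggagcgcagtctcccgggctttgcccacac
Cdkn1b: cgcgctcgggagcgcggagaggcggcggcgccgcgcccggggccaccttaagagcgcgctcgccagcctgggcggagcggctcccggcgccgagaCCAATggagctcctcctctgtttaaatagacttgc

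In these windows TTTGAA or its reverse complement TTCAAA stands close to the start of Top2a, Cdk1 and Kif11, together with CCAAT or ATTGG. Mcm6 holds E2F words of both strands that overlap each other, and Cdkn1b has only CCAAT. Of these 6 genes, the 3 mitosis genes were 11.7-fold (Top2a), 8.07-fold (Cdk1) and 10.7-fold (Kif11) lower in macrophages than in wild-type MDPs. Mcm6 was 9.11-fold and Rrm1 6.41-fold lower, while Cdkn1b was 2.15-fold higher.

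Spleen granulocytes also had lower levels of most of the 46 genes than wild-type MDPs, and of the Cdk4 and Cdk6 kinases above all. Of the 46 genes 34 were lower, 4 were higher and 8 did not pass the test, 82.6% called, while over all genes 45.2% were called, 23.1% lower and 22.0% higher. The median difference was -1.88 over the 46 genes and 0.10 over all genes. This comparison and that of the macrophages share the wild-type MDP arrays, so their values are set side by side only. All 8 licensing genes were lower (median -2.96, beside -2.93 for macrophages), all 4 fork genes (-2.14 beside -3.36), 3 of 4 genes of G2 and mitotic entry (-1.95 beside -3.45), all 7 mitotic kinase and checkpoint genes (-2.11 beside -3.00), and 4 of 8 kinetochore and spindle genes (-1.59 beside -3.01). Without granulocyte pool 2, 4 of 7 mitotic kinase and checkpoint genes (median -1.52), 2 of 4 genes of G2 and mitotic entry (-1.29) and 3 of 8 kinetochore and spindle genes (-0.90) were lower in granulocytes. The calls of Aurka (adjusted p = 0.07), Birc5 (0.074), Plk1 (0.198), Ccnb2 (0.174), Ccne2 (0.106), Tpx2 (0.0544) and Top2a (0.18, limma) were then lost. Fitted on the 6 arrays compared, 30 genes were called, with Kif11 (adjusted p = 0.0655, limma) lost beside the same 7.

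**Figure D2:**
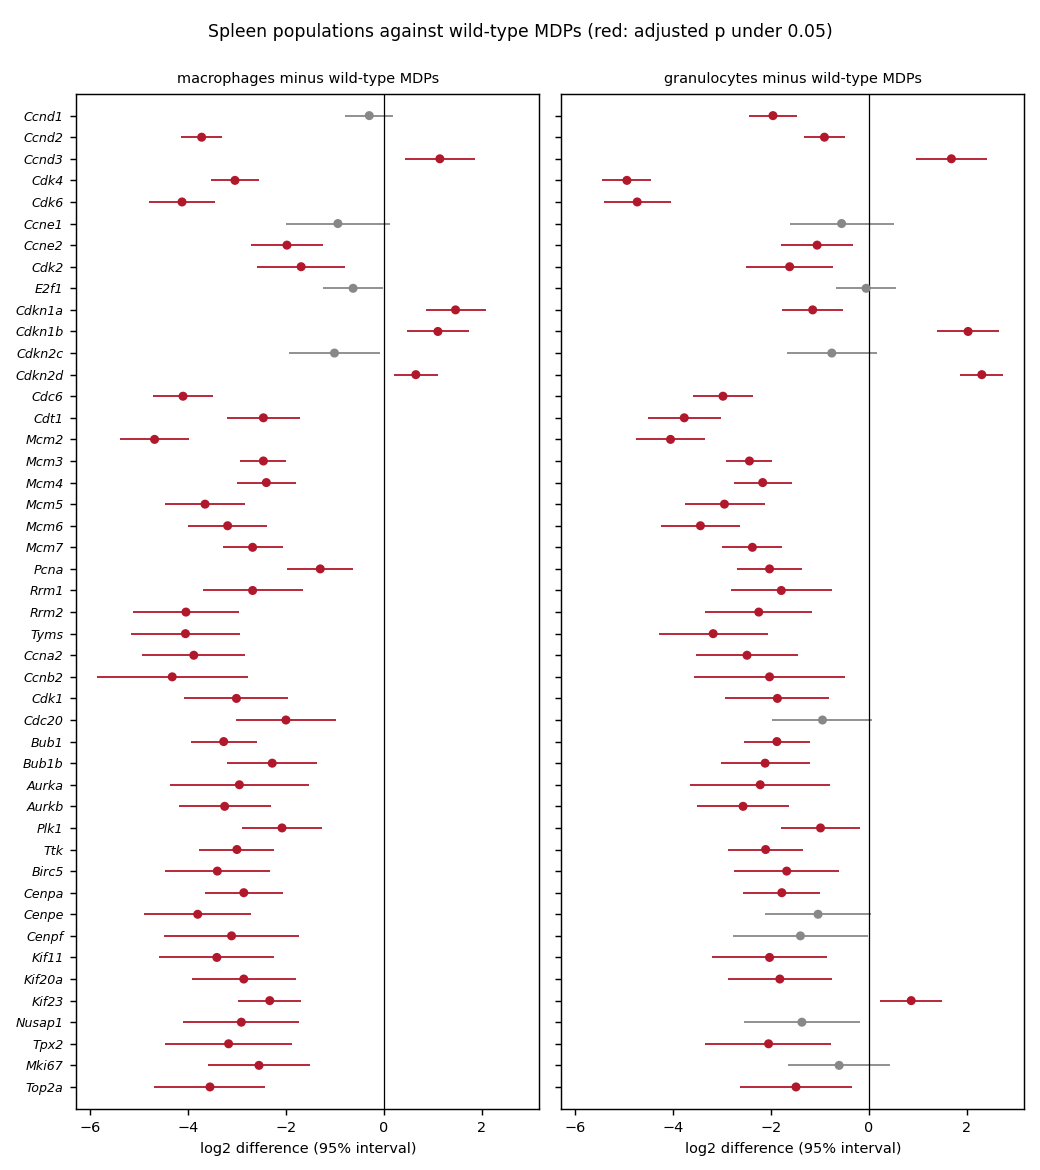
Log2 difference of each of the 46 genes (rows) between spleen macrophages and wild-type MDPs (left) and between spleen granulocytes and wild-type MDPs (right), with 95% intervals from limma; both panels share the same MDP arrays. Red marks an adjusted p under 0.05: 42 genes on the left and 38 on the right, where the mitosis genes lie nearer to 0 than on the left.

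Mcm2 stood at 5.63, 4.04 and 5.45 in the granulocyte pools, 16.5-fold under wild-type MDPs (SE 0.33, adjusted p = 1.72e-07, limma). Cdt1, the licensing partner of Cdc6, stood at 7.68, 5.68 and 6.79 in granulocytes and at 10.47, 10.53 and 10.45 in wild-type MDPs, 13.7-fold lower (SE 0.35, adjusted p = 5.85e-07, limma). Every granulocyte pool lay below every MDP pool for both genes, with pool 2 the lowest. Tyms was at 7.45, 4.44 and 5.85, a 9.06-fold fall (SE 0.52, adjusted p = 0.000153, limma), and -1.17 on the log2 scale as the mean of its probe sets. Cdk2, the kinase of the E cyclins, was at 7.20, 5.81 and 5.31, against 8.0, 7.30 and 7.89 in wild-type MDPs and 3.08-fold lower (SE 0.42, adjusted p = 0.00558, limma). The Cdk2 groups did not overlap. Ccna2, cyclin A2, stood at 9.09, 6.73 and 7.18 against 10.02, 9.94 and 10.51, 5.62-fold lower (SE 0.49, adjusted p = 0.000763, limma). Aurkb, the Aurora B kinase that corrects chromosome attachment, was at 7.13, 4.77 and 6.21 against 8.57, 8.59 and 8.64, 5.93-fold lower (SE 0.44, adjusted p = 0.000222, limma). Pool 1 was the highest and pool 2 the lowest for both.

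The kinetochore and spindle genes and the proliferation markers were split in granulocytes. Tpx2, which activates Aurora A on the spindle, was at 7.95, 4.62 and 6.42 against 8.06, 8.87 and 8.22 (log2 difference -2.05, SE 0.60, adjusted p = 0.0122, limma), a call lost without granulocyte pool 2 (-1.20, adjusted p = 0.0544 in limma; 0.000285 to 0.0761 over the alternatives). Cenpe was at 7.75, 4.95 and 7.29, so that pool 1 lay inside the MDP range of 7.55 to 7.81, and the difference of -1.04 did not pass (adjusted p = 0.109, limma). Kif23, the kinesin of the midzone and of cytokinesis, went the other way: it stood at 8.29, 8.30 and 8.73 in granulocytes and at 7.60, 7.44 and 7.71 in wild-type MDPs, 1.81-fold higher (SE 0.30, adjusted p = 0.0286, limma). The Kif23 groups did not overlap, but the call was lost without granulocyte pool 3 (0.71, adjusted p = 0.105) and without wild-type MDP pool 1 (0.87, 0.0606) or pool 2 (0.79, 0.0797), with adjusted p from 0.00386 to 0.105 over all limma alternatives. Mki67 was at 11.51, 9.36 and 10.90, a range that held all 3 wild-type MDP pools, and its difference of -0.61 did not pass (adjusted p = 0.33, limma). Top2a was at 8.68, 6.02 and 6.98 (2.80-fold lower, SE 0.53, adjusted p = 0.0337, limma), with pool 1 inside the MDP range. The Top2a call was lost without granulocyte pool 2 (-0.89, adjusted p = 0.18) or pool 3 (-1.36, 0.0939) and without wild-type MDP pool 1 (-1.58, 0.0561), pool 2 (-1.51, 0.0646) or pool 3 (-1.37, 0.0938); over all limma alternatives it ranged from 0.00073 to 0.18. The other genes not called were Ccne1, E2f1, Cdkn2c, Cdc20, Cenpf and Nusap1. Without granulocyte pool 1, Cenpe (-1.58), Cdkn2c (-1.40), Cdc20 (-1.52), Cenpf (-2.06) and Nusap1 (-2.03) were called lower (adjusted p from 0.00187 to 0.016, limma).

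The granulocyte pools differed among themselves in these genes more than any other group did. The median SD of the 46 genes over the 3 granulocyte pools was 0.98, against 0.25 for all genes; in macrophages it was 0.28 against 0.13, and in wild-type MDPs 0.24 against 0.19. Granulocyte pool 1 was the highest of the 3 for 41 of the 46 genes (89.1%, against 33.8% of all genes), and pool 2 the lowest for 34 (73.9%, against 31.6%). Macrophage pool 2 was the lowest of its group for 33 genes (71.7%, against 35.3%). The kinetochore and spindle genes averaged 7.83, 5.50 and 6.77 in the granulocyte pools, the mitotic kinase and checkpoint genes 6.76, 4.54 and 5.45, the fork genes 8.58, 6.10 and 7.31, and the licensing genes 6.84, 5.39 and 6.10. Over the same pools 5 promyelocyte markers averaged 7.50, 5.72 and 7.37, and the mature neutrophil markers 12.32, 11.97 and 12.17. The part of these markers in the spread was not tested. Without granulocyte pool 1, 43 of the 46 genes were called against wild-type MDPs (median -2.38, with 7 kinetochore and spindle genes lower), and without pool 2, 31 were called (median -1.35, with 3). Of all 17097 genes, 7927 and 6504 were called in these fits.

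**Figure D3:**
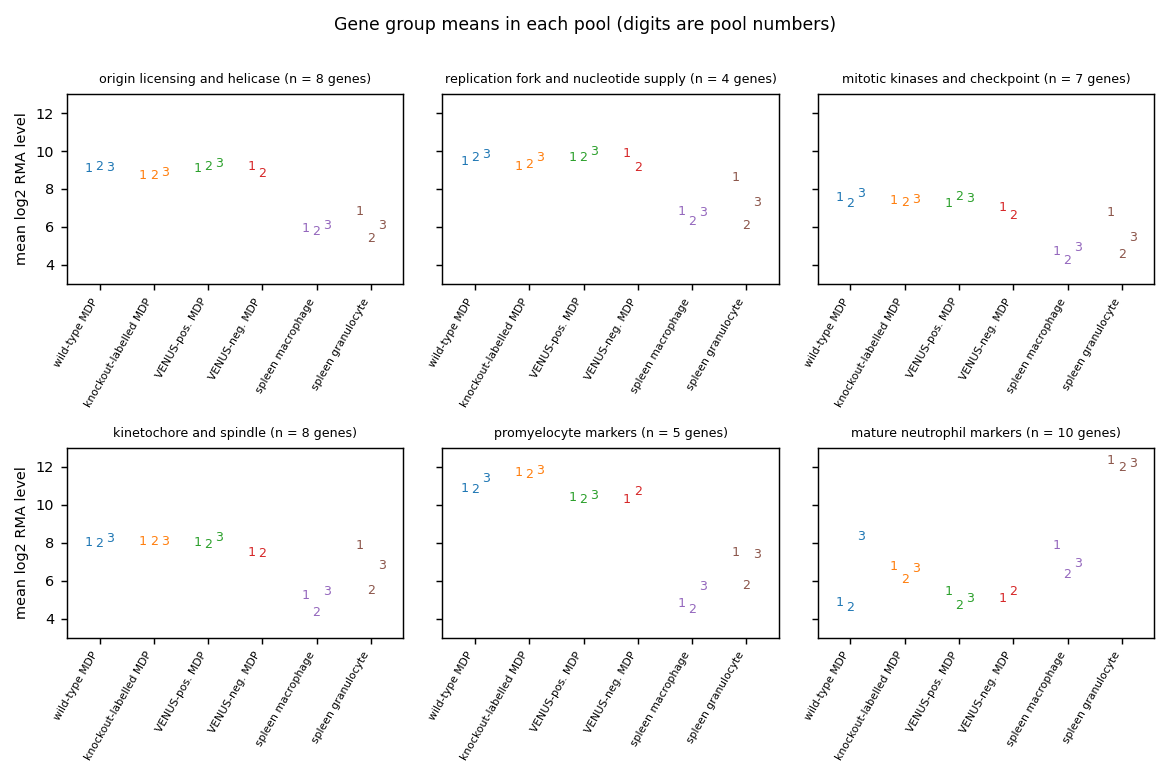
Mean log2 level of 4 groups of cell cycle genes and of 2 marker lists in each pool; digits are pool numbers, placed over the 6 sorted populations. Granulocyte pool 1 is the highest and pool 2 the lowest of their group in all 4 cell cycle groups, as for the kinetochore and spindle genes at 7.83 and 5.50, while the mature neutrophil markers of the granulocyte pools lie between 11.97 and 12.32.

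The control of entry into the cycle had its own pattern, in which the D cyclins, their kinases and the CDK inhibitors moved apart. The kinases were far lower in both mature populations. Cdk4 stood at 7.41, 7.15 and 7.32 in macrophages, at 5.09, 6.03 and 5.05 in granulocytes and at 10.36, 10.32 and 10.32 in wild-type MDPs. The 3 groups did not overlap, and the falls were 8.23-fold in macrophages (SE 0.23, adjusted p = 3.3e-07, limma) and 30.8-fold in granulocytes (adjusted p = 8.84e-10). Cdk6 stood at 6.06, 6.23 and 6.35 in macrophages, at 6.53, 5.51 and 4.76 in granulocytes and at 10.31, 10.62 and 10.06 in wild-type MDPs. It was 17.4-fold (SE 0.32, adjusted p = 3.76e-07) and 26.6-fold lower (adjusted p = 2.68e-08, limma), and the ranges of the mature populations overlapped. Cdk4 and Cdk6 stayed between 9.68 and 10.75 in all 11 MDP pools.

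Each D cyclin behaved differently. Ccnd2 was at 6.31, 6.16 and 6.43 in macrophages, at 8.59, 9.44 and 9.29 in granulocytes and at 10.25, 10.09 and 9.71 in wild-type MDPs. Macrophages lay lowest without overlap, 13.2-fold under MDPs (SE 0.19, adjusted p = 1.01e-08, limma), and granulocytes were 1.88-fold lower (log2 difference -0.91, adjusted p = 0.0015). The 5 other Ccnd2 probe sets gave -1.36 to -2.49 in granulocytes, and the mean of all its probe sets -1.92 (adjusted p = 6.13e-08, limma). Ccnd1 was at 7.30, 7.36 and 7.09 in macrophages, at 6.01, 5.64 and 5.13 in granulocytes and at 7.65, 7.45 and 7.56 in wild-type MDPs. It fell 3.90-fold in granulocytes (SE 0.23, adjusted p = 6.6e-06, limma), and its difference in macrophages was -0.30 and did not pass (adjusted p = 0.433). With probe sets averaged the macrophage difference was -0.53 and passed (adjusted p = 0.0479, limma), the other Ccnd1 probe sets differing by -0.10 and -1.19. Ccnd3 went up: it stood at 8.87, 8.94 and 9.13 in macrophages, at 10.23, 8.99 and 9.32 in granulocytes and at 7.44, 7.59 and 8.48 in wild-type MDPs. Both mature populations lay above all 3 MDP pools, by 2.21-fold (SE 0.34, adjusted p = 0.0213) and 3.20-fold (adjusted p = 0.000869, limma). Wild-type MDP pool 3, the pool with neutrophil and erythroid markers, was the highest of its group, and without it both calls stood. The macrophage call for Ccnd3 was lost without macrophage pool 2 (1.16, adjusted p = 0.0544) or pool 3 (1.07, 0.0749) and without wild-type MDP pool 1 (0.95, 0.0982) or pool 2 (1.02, 0.08), with 1.26e-05 to 0.0982 over all limma alternatives. A second Ccnd3 probe set differed by 3.77 in macrophages and 5.14 in granulocytes.

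Of the 4 CDK inhibitors, 3 were higher in macrophages, and 2 were higher and 1 lower in granulocytes. Over all genes 23.6% were called in macrophages (11.4% higher, 12.2% lower) and 45.2% in granulocytes (22.0% higher, 23.1% lower). Without macrophage pool 2, 2 inhibitors were higher in macrophages. Without granulocyte pool 1, 2 inhibitors were higher and 2 lower in granulocytes, Cdkn2c then being called (-1.40, adjusted p = 0.00187, limma). These fits called 3232 and 7927 of all 17097 genes against wild-type MDPs. Cdkn1b, which encodes p27, stood at 8.88, 9.05 and 9.14 in macrophages, at 9.57, 10.19 and 10.06 in granulocytes and at 8.05, 7.64 and 8.07 in wild-type MDPs. The groups did not overlap, and Cdkn1b was 2.15-fold (SE 0.30, adjusted p = 0.0131) and 4.06-fold higher (adjusted p = 5.95e-05, limma); the macrophage call was lost without wild-type MDP pool 2 (0.96, adjusted p = 0.059; 0.000624 to 0.059 over the alternatives). Cdkn2d, which encodes p19, the INK4 inhibitor of Cdk4 and Cdk6, stood at 6.73, 6.76 and 6.81 in macrophages, at 8.91, 8.26 and 8.06 in granulocytes and at 5.98, 5.82 and 6.54 in wild-type MDPs. In granulocytes Cdkn2d was 4.93-fold higher (SE 0.21, adjusted p = 4.89e-07, limma), and this call stood in all 14 alternatives. In macrophages Cdkn2d was 1.57-fold higher (adjusted p = 0.032, limma), but the call was lost with arrays centred on their medians (0.64, adjusted p = 0.0505), with a spread that follows the level (0.65, 0.0621), and without any one macrophage pool or wild-type MDP pool 1 or 2 (0.51 to 0.67, 0.0712 to 0.141).

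Cdkn1a, which encodes p21, the inhibitor induced by p53, moved in opposite directions. It stood at 8.56, 8.14 and 8.26 in macrophages, at 6.40, 5.33 and 5.38 in granulocytes and at 6.66, 7.06 and 6.85 in wild-type MDPs. Macrophages lay above and granulocytes below all wild-type MDP pools, by 2.76-fold (SE 0.29, adjusted p = 0.00139) and 2.22-fold (adjusted p = 0.00436, limma). A second Cdkn1a probe set gave the same signs, 0.88 and -0.40. Cdkn2c, which encodes p18, stood at 5.37, 5.33 and 5.49 in macrophages, at 6.92, 4.73 and 5.27 in granulocytes and at 6.50, 6.04 and 6.67 in wild-type MDPs, and neither difference passed (-1.01, adjusted p = 0.116; -0.76, adjusted p = 0.164, limma). Among the genes of S-phase entry, Ccne2, cyclin E2, was at 3.15, 3.73 and 3.50 in macrophages and at 5.14, 4.92 and 6.26 in wild-type MDPs (log2 difference -1.98, adjusted p = 0.000558, limma). Ccne2 in macrophages was near the floor of the array. Cdk2 was 3.23-fold lower in macrophages (adjusted p = 0.00746, limma), while Ccne1 (-0.94, adjusted p = 0.215) and E2f1 (-0.63, adjusted p = 0.138) did not pass. Fitted on the 6 arrays compared, Ccne1 (adjusted p = 0.0137), E2f1 (0.00495) and Cdkn2c (0.00379, limma) were called lower in macrophages.

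**Figure D4:**
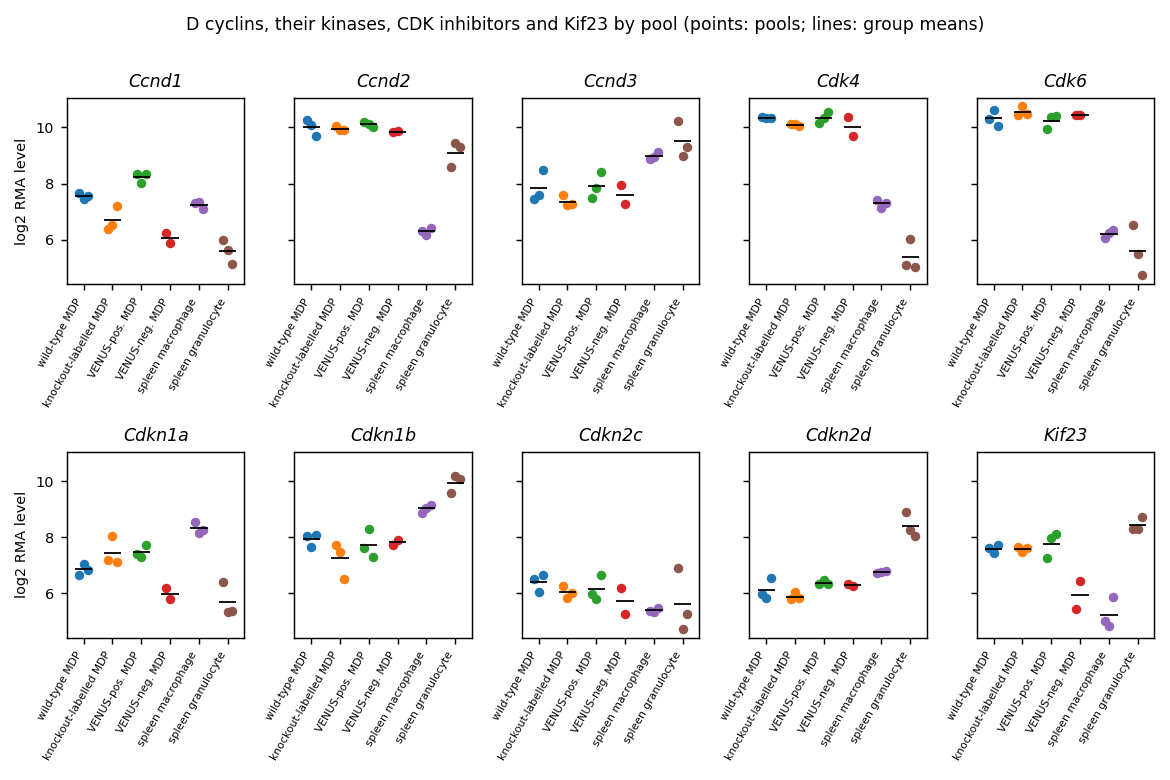
Log2 level of the 3 D cyclins, their kinases Cdk4 and Cdk6, the 4 CDK inhibitors and Kif23 in each pool (points) of the 6 populations, with the group mean as a line. Cdk4 and Cdk6 are high in all 11 MDP pools, Cdkn1b and Cdkn2d are highest in granulocytes, and Ccnd1, Cdkn1a and Kif23 are lower in the 2 VENUS-negative than in the 3 VENUS-positive pools.

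Set directly against granulocytes, macrophages had more Cdkn1a, Cdk4, Ccnd1 and Cdt1 and less of several mitotic genes. Of the 46 genes 16 were lower in macrophages, 4 were higher and 26 did not pass the test, 43.5% called, while over all genes 31.2% were called, 12.8% lower and 18.4% higher. The median difference was -0.91, against -0.09 over all genes. Cdkn1a was 6.13-fold higher (SE 0.29, adjusted p = 7.19e-06), Cdk4 3.74-fold (SE 0.23, adjusted p = 1.89e-05), Ccnd1 3.16-fold (SE 0.23, adjusted p = 6.42e-05) and Cdt1 2.49-fold higher (SE 0.35, adjusted p = 0.00923, limma). The groups did not overlap for these 4 genes. Ccnd2 was 7.01-fold lower in macrophages (SE 0.19, adjusted p = 9.32e-08, limma), Cdkn2d 3.13-fold lower (SE 0.21, adjusted p = 2.58e-05), and Cdc6 2.17-fold lower, at 6.35, 5.29 and 5.51 in granulocytes (SE 0.29, adjusted p = 0.00788).

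The licensing genes had a median difference between macrophages and granulocytes of -0.26, with 1 of 8 lower and 1 higher. The kinetochore and spindle genes had a median of -1.46, with 4 of 8 lower. Kif23 stood at 5.02, 4.85 and 5.87 in macrophages, 9.14-fold under granulocytes (SE 0.30, adjusted p = 1.39e-06, limma). A second Kif23 probe set, with a mean level of 3.50, differed by -0.79. Cenpe was 6.78-fold lower (SE 0.51, adjusted p = 0.000724), Mki67 3.83-fold lower (SE 0.49, adjusted p = 0.00719) and Top2a 4.18-fold lower (SE 0.53, adjusted p = 0.00816, limma), each without overlap. Other Top2a probe sets differed by -0.34 and -0.21 on the log2 scale. Fitted on the 6 arrays compared, 10 of the 20 calls were lost, among them those of Mki67 (adjusted p = 0.0645), Top2a (0.07) and Cdt1 (0.0772, limma). Bub1, a kinase of the spindle checkpoint, was at 3.67, 3.27 and 3.39 in macrophages and at 5.71, 4.44 and 4.36 in granulocytes (-1.39, adjusted p = 0.00331, limma). The call for Rrm2, at 5.40, 4.25 and 5.29 against 8.29, 5.63 and 6.37 (-1.78, adjusted p = 0.0153, limma), was lost without macrophage pool 2 (-1.42, adjusted p = 0.0799; 0.00233 to 0.0837 over the alternatives). Birc5, at 8.56, 6.18 and 7.47 in granulocytes (-1.73, adjusted p = 0.0166, limma), lost its call without macrophage pool 2 (-1.19, adjusted p = 0.0916) or granulocyte pool 1 (-1.15, 0.0696), with 0.00137 to 0.0919 over the alternatives. Ccnb2, at 8.0, 4.85 and 7.13 in granulocytes, overlapped between the groups (-2.28, adjusted p = 0.0254, limma). Its call was lost without macrophage pool 2 (-1.41, adjusted p = 0.132), granulocyte pool 1 (-1.61, 0.103) or granulocyte pool 3 (-2.05, 0.084), with 0.00163 to 0.132 over the alternatives. The count of called genes moved with single pools: it was 12 without macrophage pool 2, 17 without granulocyte pool 1 and 30 without granulocyte pool 2. Over all 17097 genes, 4058, 5719 and 4340 were called in these fits, against 5337 in the main fit and 5108 on the 6 arrays compared. Without granulocyte pool 1 the kinetochore and spindle median was -0.73, with 2 of 8 lower, and without granulocyte pool 2 it was -2.23, with 7 of 8 lower.

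Among MDPs, the knockout-labelled pools were compared with the wild-type pools to ask whether progenitors labelled as deficient in IRF8, a transcription factor of the monocyte and dendritic lineages, express these genes differently. None of the 46 genes passed the test (0 called with limma, against 0.907% of all genes, 0.450% lower and 0.456% higher), and 4 (8.7%) were at an unadjusted p under 0.05, all lower, against 8.67% of all genes. Fitted on these arrays alone, 0 were called and 10 had an unadjusted p under 0.05. The share of all genes under 0.05 in that smaller fit was not counted. The 8.67% belongs to the fit of all 6 groups, so it is no background for these 10 genes. The median difference was -0.17, against 0.01 over all genes, with 34 of 46 differences below 0. The pools did not overlap for 10 genes that were lower and 2 that were higher in the knockout-labelled pools, and they did not overlap for 14.7% of all genes. Mki67 was at 11, 11.40 and 11.50 in the knockout-labelled pools, a difference of 0.10 with a 95% interval of -0.95 to 1.14. Top2a was at 8.60, 8.62 and 8.83, a difference of -0.03 with an interval of -1.17 to 1.10. These intervals leave changes of about the size of a doubling undetected. Their width rests on a spread shared by all 6 groups of the fit, not on the MDP pools alone. The median SD of the 46 genes was 0.98 in granulocytes, 0.24 in wild-type MDPs and 0.21 in knockout-labelled MDPs.

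The smallest p-value in that comparison was that of Ccnd1, at 6.37, 6.54 and 7.19 in the knockout-labelled pools and 7.65, 7.45 and 7.56 in the wild-type pools. All 3 lay below all wild-type pools (log2 difference -0.86, SE 0.23, 95% interval -1.35 to -0.36), but the adjusted p was 0.13 in limma, and Ccnd1 was the single gene called, lower, when knockout-labelled pool 3 was left out. The other genes at an unadjusted p under 0.05 were Mcm2 (-0.79, adjusted p = 0.469), Mcm3 (-0.51, adjusted p = 0.496) and Cdkn1b (-0.67, adjusted p = 0.54, limma). Second probe sets differed by -0.48 for Mcm2, -0.63 for Mcm3 and 0.06 for Cdkn1b. Mcm2 was at 8.63, 8.28 and 7.99, below all wild-type pools, and Cdkn1b at 7.74, 7.48 and 6.52, which overlapped them. Ccne1, cyclin E1, was at 5.05, 4.96 and 5.19 against 5.79, 5.84 and 6.56 (-1.0, 95% interval -2.05 to 0.06, adjusted p = 0.618, limma). Cdkn1a was at 7.19, 8.04 and 7.13 (0.60, 95% interval -0.02 to 1.21, adjusted p = 0.599, limma). Both groups of pools were apart for these genes, yet neither passed. The D cyclin kinases were at 10.05 to 10.14 for Cdk4 and 10.45 to 10.75 for Cdk6, with differences of -0.23 and 0.22.

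In the reporter mice, VENUS-negative MDPs had less Ccnd1, Kif23 and Cdkn1a than VENUS-positive MDPs. These 3 of the 46 genes (6.52%) were called, all lower, and 43 did not pass. Over all genes 5.87% were called, 3.02% lower and 2.85% higher, so the share called was near that of all genes. At an unadjusted p under 0.05 (limma) were 5 of the 46 genes (10.9%), against 16.5% of all genes. The median difference was -0.33, against -0.01 over all genes. Ccnd1 stood at 6.24 and 5.87 in the VENUS-negative pools and at 8.34, 8.04 and 8.35 in the VENUS-positive pools. The VENUS-negative pools were the lowest of all MDP pools for Ccnd1, 4.56-fold under the VENUS-positive pools (log2 difference -2.19, SE 0.26, 95% interval -2.74 to -1.64, adjusted p = 8.49e-05, limma), and the other Ccnd1 probe sets gave -2.26 and -2.71. Kif23 stood at 5.45 and 6.44 against 7.25, 7.97 and 8.10, without overlap and 3.54-fold lower (SE 0.33, adjusted p = 0.00306, limma). The Kif23 call was lost without VENUS-negative pool 1 (-1.33, adjusted p = 0.0681) and when only the arrays compared were fitted (-1.83, 0.0939), with adjusted p from 0.00175 to 0.0939 over the alternatives, and its second probe set, at a mean level of 3.50, gave -0.28. Cdkn1a stood at 6.19 and 5.79 against 7.39, 7.30 and 7.71, without overlap and 2.78-fold lower (SE 0.32, adjusted p = 0.0111, limma). The Cdkn1a call was lost without VENUS-negative pool 2 (-1.28, adjusted p = 0.112) and when its probe sets were averaged (-0.82, 0.06), with adjusted p from 0.00368 to 0.112, since the second probe set gave -0.17.

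Apart from Kif23, none of the replication and mitosis genes among the 46 passed between the VENUS groups. Mcm3 was at 7.75 and 7.04 against 8.15, 8.15 and 8.24 (-0.79, adjusted p = 0.0821, limma), and Aurkb at 7.88 and 7.52 against 9.09, 9.04 and 8.79 (-1.27, adjusted p = 0.181). Aurkb was called when only the 5 arrays compared (adjusted p = 0.0363) or the 11 MDP arrays (0.0148) were fitted, and without VENUS-negative pool 1 so were Mcm3 (-1.14, adjusted p = 0.0337) and Ccne1 (-1.66, 0.0251, limma). With probe sets averaged, Ccnd2 (-0.60, adjusted p = 0.0354) and Cdk4 (-0.59, 0.0286, limma) were called. Aurkb and Mcm3 had no overlap in levels, as had 14 genes lower and 2 higher of the 46, while 28.8% of all genes had none. Mki67 was at 11.66 and 11.26 against 11.46, 11.05 and 11.54 (0.11, 95% interval -1.06 to 1.28), and Top2a at 8.53 and 7.99 against 8.75, 8.84 and 9.16 (-0.66, adjusted p = 0.705, limma). With the marker levels given above, the VENUS-negative pools held less Csf1r and more of the erythroid and megakaryocyte markers, of which 8 of 11 were called higher (median 4.20). Mast cell and basophil markers were also higher, with 4 of 5 called (median 3.03) and means of 7.52 and 7.61 against 3.93, 3.93 and 4.20. The part of any of these in the Ccnd1, Kif23 and Cdkn1a differences was not tested. Only 2 VENUS-negative arrays limit the precision of this comparison.

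**Figure D5:**
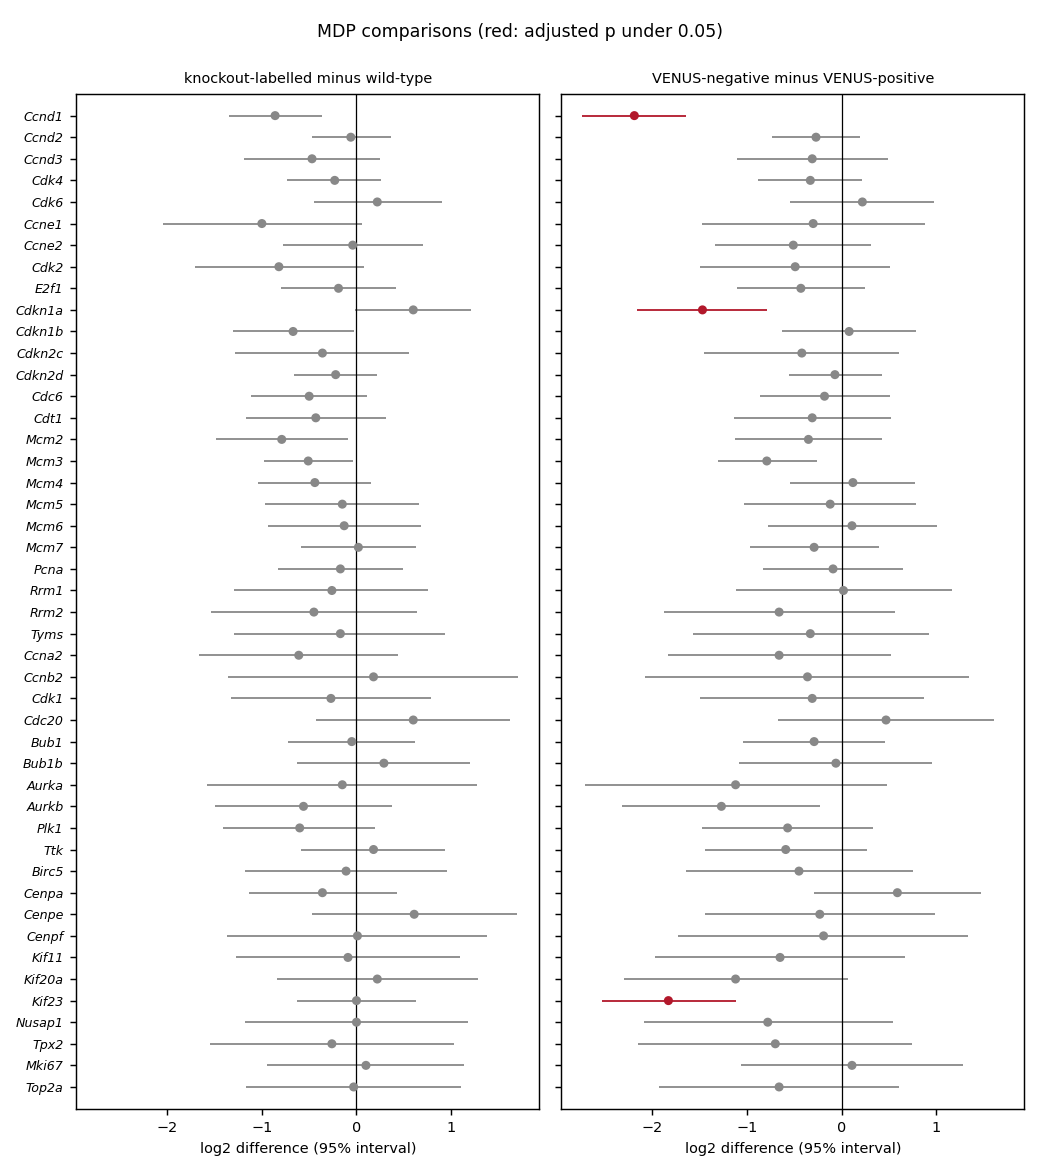
Log2 difference of each of the 46 genes (rows) between knockout-labelled and wild-type MDPs (left) and between VENUS-negative and VENUS-positive MDPs (right), with 95% intervals from limma. Red marks an adjusted p under 0.05: none on the left, and Ccnd1 (-2.19), Kif23 (-1.83) and Cdkn1a (-1.47) on the right.

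The VENUS and knockout comparisons share no arrays, and the difference between their differences was tested in the same limma fit. It passed for 3 of the 46 genes (6.52%), against 3.60% of all genes, 1.86% in the negative and 1.74% in the positive direction. The same 3 genes were the only ones of the 46 at an unadjusted p under 0.05 (limma), against 12.6% of all genes. All 3 were negative. For Cdkn1a the VENUS difference was lower than the knockout difference by a log2 value of -2.07 (SE 0.43, adjusted p = 0.0132, limma), from differences of -1.47 and 0.60. For Kif23 it was -1.82 (SE 0.44, adjusted p = 0.0336) and for Ccnd1 -1.33 (SE 0.34, adjusted p = 0.0476, limma), the latter from differences of -2.19 and -0.86. The knockout differences of Cdkn1a and Ccnd1 did not themselves pass. The Ccnd1 call held in 4 of 20 alternatives (0.00167 to 0.191), that of Kif23 in 9 of 20 (0.0101 to 0.189) and that of Cdkn1a in 19 of 20 (0.0067 to 0.062, lost without VENUS-negative pool 2).

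Other genes of the pathway, from lists that hold none of the 46, were read beside them. Of 41 further replication genes, 39 were lower in macrophages than in wild-type MDPs and 39 were lower in granulocytes, with none higher (medians -2.46 and -2.54). The list had 95.1% called in each, against 23.6% of all genes in macrophages and 45.2% in granulocytes. In macrophages the largest falls were those of Uhrf1, which guides maintenance methylation, 19.3-fold, Ung, the uracil glycosylase, 17.6-fold, and Prim1, the primase, 15.5-fold. In granulocytes Gins1 of the helicase complex was 23.5-fold and Ung 19.9-fold lower. Of 47 further mitosis genes, 42 were lower in macrophages (median -2.36), with Cep55, a protein of abscission, 26.1-fold lower. In granulocytes 34 were lower (median -1.51) and 2 were higher. Pttg1, which encodes securin, was 2.59-fold higher (SE 0.18, adjusted p = 2.32e-05, limma), and Cdc25b, a phosphatase that activates Cdk1, 1.43-fold (adjusted p = 0.0451). The Cdc25b call was lost in 9 alternatives, among them leaving out any one of granulocyte pools 1, 2 and 3 (adjusted p = 0.0952, 0.0897 and 0.072) or wild-type MDP pool 1 (0.0855) or 2 (0.194, limma). Between macrophages and granulocytes, 8 of the 41 replication genes (6 lower, 2 higher, median -0.02) and 18 of the 47 mitosis genes (all lower, median -1.11) were called. Against the shares of all genes called in the same comparison, the replication genes lay below and the mitosis genes above.

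Among 29 genes of the retinoblastoma, E2F and CDK control network, 15 fell and 1 rose in macrophages, and 15 fell and 3 rose in granulocytes. That is 55.2% called against 23.6% of all genes in macrophages, and 62.1% against 45.2% in granulocytes, where the list lay nearer to the background. Myc, a driver of growth and cycle entry, fell 15-fold in macrophages (SE 0.17, adjusted p = 2.3e-09) and 36.0-fold in granulocytes (adjusted p = 2.31e-11, limma). Chek1, the replication checkpoint kinase, fell 20.7-fold in macrophages, and Tfdp2, a dimer partner of the E2F factors, 12.1-fold in granulocytes. E2f2 rose 4.33-fold in macrophages (SE 0.46, adjusted p = 0.00304) and 5.44-fold in granulocytes (adjusted p = 0.000512, limma), from a wild-type MDP level that itself had an SD of 0.93. Of 23 genes linked to growth arrest and quiescence, 10 rose and 2 fell in macrophages (median 0.42), and 14 rose and 4 fell in granulocytes (median 1.96). Of all genes 11.4% rose in macrophages and 22.0% in granulocytes, with 23.6% and 45.2% called, against 52.2% and 78.3% of this list. The genes that rose most in macrophages were Gas7 (7.79-fold), Klf2, a factor of quiescent leukocytes (6.26-fold), and Txnip, which binds thioredoxin (5.65-fold). In granulocytes they were Mxd1, an antagonist of Myc (58.1-fold, SE 0.27, adjusted p = 8.02e-10, limma), Gadd45a, a stress-induced gene (31.6-fold), and Tob1, an antiproliferative protein (11.9-fold).

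Between MDP groups, few of these further genes moved, most of them in the growth arrest list. Between the VENUS groups 3 of its 23 genes were called higher and 1 lower (17.4%), against 5.87% of all genes called. Called there were also 1 of 41 replication genes (2.44%), 1 of 29 control genes (3.45%) and 0 of 47 mitosis genes. The knockout comparison called 1 of the 23 growth arrest genes (4.35%), against 0.907% of all genes. Against wild-type, the knockout-labelled pools had more Gas7, 8.99 ± 0.08 against 5.82 ± 0.56 (SD, n = 3 and 3; 9.04-fold, adjusted p = 0.00512, limma), and no other gene of the 4 lists was called. The VENUS-negative pools had more Gadd45a than the VENUS-positive pools, 7.01 ± 0.30 against 3.91 ± 0.40 (SD, n = 2 and 3; 8.60-fold, adjusted p = 0.00107, limma), and more Txnip, 9.64 ± 0.34 against 7.84 ± 0.18 (3.49-fold, adjusted p = 0.0019). Foxo4 (0.69) and Tfdp2 (1.26) were higher and Klf2 (-1.49) and Pole, the catalytic subunit of polymerase epsilon (-0.72), were lower at adjusted p between 0.0235 and 0.0401 in limma. None of these 4 calls stood in every alternative. Without VENUS-negative pool 1 the difference was -1.37 for Klf2 (adjusted p = 0.214), 0.79 for Foxo4 (0.06) and -0.53 for Pole (0.319, limma). Without VENUS-negative pool 2 it was -1.61 for Klf2 (adjusted p = 0.115), 0.58 for Foxo4 (0.187) and 0.84 for Tfdp2 (0.363, limma). The calls were also lost without VENUS-positive pool 1 (all 4), pool 2 (Tfdp2 and Klf2) or pool 3 (Pole and Klf2). The calls of Gas7, Gadd45a and Txnip stood in every alternative tried.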

How the data were processed

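The deposited values are log2 expression levels, made by the authors with RMA in Affymetrix Expression Console, per the submitters' processing notes, without versions. RMA's background correction, quantile normalization and probe-set summary compress differences at low levels. Of 45037 probe sets, 28898 had 1 gene symbol. Each of 17097 genes was read from its brightest probe set (mean of the 17 arrays), with no filter on level. limma 3.58.1 in R 4.3.3 fitted a mean per group over all arrays (lmFit, eBayes, two-sided), with Benjamini-Hochberg adjustment over all genes and a call at an adjusted p under 0.05. The script was tested on simulated data. Differences are first group minus second. The 46 genes and the other lists were chosen with earlier results of these data known. All members could be named. Values by pool were given for D cyclins, their kinases, CDK inhibitors, Mki67, Top2a and the largest called member of each role. Cdc6, Cdt1 and Bub1 were added after values were seen. Outside this rule, pool values were also given for Mcm2, Ccne1, Mcm3 and Aurkb between MDP groups and for Cenpe in granulocytes. Other lists name up to 3 called genes each way. Alternatives changed the probe-set rule, a level filter, centring, normalization, arrays fitted, eBayes, a replicate block and single pools. Pools are the replicates of the labels, and their number limits precision. In the main fit the p-values measure a spread between pools that all 6 groups share, the widely spread granulocytes among them. Dendritic cells of the design were not analysed here.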

Additional observations from a re-analysis of the deposited data

Results flagged for a closer look

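For 3 genes the difference between VENUS-negative and VENUS-positive MDPs was itself different from that between knockout-labelled and wild-type MDPs, by the limma test of the difference between both differences. The values on the log2 scale were -2.07 for Cdkn1a (SE 0.43, adjusted p = 0.0132), -1.82 for Kif23 (SE 0.44, adjusted p = 0.0336) and -1.33 for Ccnd1 (SE 0.34, adjusted p = 0.0476). Of 20 alternatives, the call held in 19 for Cdkn1a, in 9 for Kif23 and in 4 for Ccnd1. No group held enough pools for a test of single outlying pools.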

How the results depend on the processing

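No call reversed its direction in any alternative. With single pools left out, the count of called genes ranged from 0 to 1 for knockout-labelled against wild-type MDPs, 2 to 4 for VENUS-negative against VENUS-positive, 39 to 42 for macrophages and 31 to 43 for granulocytes against wild-type MDPs, 12 to 30 for macrophages against granulocytes, and 1 to 2 for the difference between the MDP differences. Fitting only the arrays compared gave 45 genes for macrophages and 30 for granulocytes against wild-type MDPs. It gave 11 for macrophages against granulocytes and 1 for the difference between the MDP differences. The same fits called 5250, 6276, 5108 and 430 of all 17097 genes, and the cause of the shifts was not tested. For the difference between the MDP differences, 1 gene was also called with only the 11 MDP arrays. The same held with wild-type MDP pool 3 and granulocyte pool 1 both left out, and both settings were chosen after seeing the data. With pool number as a replicate block, 0, 3, 42, 40, 21 and 2 genes were called in the same order of comparisons. Same-numbered pools deviated with correlations of -0.05 to 0.13, in 0 of 5 comparisons did every pool correlate best with its own number, and the labels tie numbers to nothing, so pools were not treated as paired. Of 62 calls named from the other lists, 15 were lost in at least 1 alternative. Levels near 3.25, the lower quartile, limit what a fall can show.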
